A study of Mus musculus with 16 samples.

Results

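The solute carrier (SLC) genes of the mouse amygdala were taken as every gene whose symbol is Slc, a family number, the letter a and a member number, leaving out Slc6a5, Slc6a9, Slc6a2 and Slc18a2, and with a mean of at least 1 CPM (the deposited value scaled to a common library total) over the 16 libraries. Of the 17293 genes in the table, 296 had such a symbol at any level and 212 reached the limit, in 44 families. Of the 84 genes under the limit, 9 were listed at 0 in all libraries. The symbols Slc2a4rg-ps, Slc4a1ap, Slc7a6os, Slc9a3r1 and Slc9a3r2 met the rule by spelling although they name partners or neighbours of transporters. RNA was sequenced from amygdala of C57BL/6 offspring (C57BL6/J in the study's methods) at postnatal day 28 (PN28), in 4 groups of 4 animals each. PS males (libraries LM25 to LM28) and PS females (LM29 to LM32) were born to dams that went through chronic psychosocial stress while pregnant, and CTRL males (LM17 to LM20) and CTRL females (LM21 to LM24) were born to undisturbed dams. By the study's design the sequenced offspring were not cross-fostered, so PS offspring were also reared by stressed dams. A PS effect below therefore covers stress before birth and care after it, which cannot be told apart here. The animals of a sex within a group came from different litters, and whether brothers and sisters of a litter were used was not stated. Each animal gave 1 directional poly(A) library of whole tissue, so that fewer cells of a type and less RNA per cell cannot be told apart. Values of a group are given below in the order of these library numbers.

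SLC proteins carry ions, transmitters, sugars, amino acids, nucleotides and metals across the plasma membrane, the membrane of synaptic vesicles and the inner mitochondrial membrane, most of them by coupling the movement of a substrate to an ion gradient. In brain they load transmitters into vesicles, clear glutamate and GABA from the extracellular space, set the chloride gradient on which GABA responses depend, control calcium and pH in neurons and bring glucose and lactate in from blood. Members with the same family number are related in sequence and often share a substrate class, and the human and mouse families carry the same numbers.

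The values deposited per library summed to between 39989993 and 44275406. They had been corrected by the authors, and no counting error is given. The correction removed 2 of 12 within-group directions, so the spread between libraries of a group is smaller than before it. This holds for the ranges, SDs, overlaps and outlying libraries given below, whereas the main limma fits kept the removed directions as terms. Fits with libraries left out kept only the combinations of these directions that do not involve those libraries. Markers of the basolateral and of the central amygdala were present in all groups, with 0 of 15 listed at 0 everywhere. Among males, LM28 and LM25 had the highest mean log2 levels of the 12 hippocampal markers (6.19 and 5.64, against 5.05 and 5.22 in the other PS males and 4.82 to 5.37 in CTRL males), and the counts of members that passed are also given without them. The hippocampal list and the central amygdala list both hold Wfs1. Of the 8 choroid plexus markers, Ttr, Folr1, Clic6, Aqp1 and Otx2 were at 0 in every library.

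The 212 SLC genes held 2.10% of all CPM, and their median level was 26.1 CPM, beside 25 CPM over the 13301 genes of at least 1 CPM. Levels of different genes are compared per kb of exon. The vesicular glutamate transporter gene Slc17a7 had the highest level (391 CPM per kb), followed by Slc1a2, the main glial glutamate transporter (243), and Slc25a4, an ADP/ATP carrier of mitochondria (168). The next in order were Slc22a17, a receptor-like member of the organic ion family (93.5 CPM per kb), the neuronal bicarbonate transporter gene Slc4a10 (89.6), the mitochondrial ATP-Mg/phosphate carrier gene Slc25a23 (86.7), the second ADP/ATP carrier gene Slc25a5 (78.6) and the glial glutamate transporter gene Slc1a3 (76.1). The sodium-calcium exchanger gene Slc8a2 (72.2 CPM per kb) and the sodium-calcium-potassium exchanger gene Slc24a2 (67.4) completed the first 10. As the plot of levels per exon length shows, the libraries of Slc1a2 overlapped at their edges with those of Slc17a7 above and Slc25a4 below, Slc17a7 and Slc25a4 did not overlap, and neighbours among ranks 4 to 10 overlapped within the range of their libraries. Family 25, the mitochondrial carriers, had the most members (38) and 13.3% of the members' CPM, whereas the 6 members of family 1 held 19.8%, family 17 held 10.2% with 3 members and family 6 held 8.21% with 9 members. At the limit of 1 CPM, the last members inside were Slc38a5 (1.03 CPM), Slc10a3 (1.1) and Slc23a3 (1.11), and the first outside were Slc17a8 (0.997), Slc25a45 (0.985) and Slc16a12 (0.920).

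**Figure D1:**
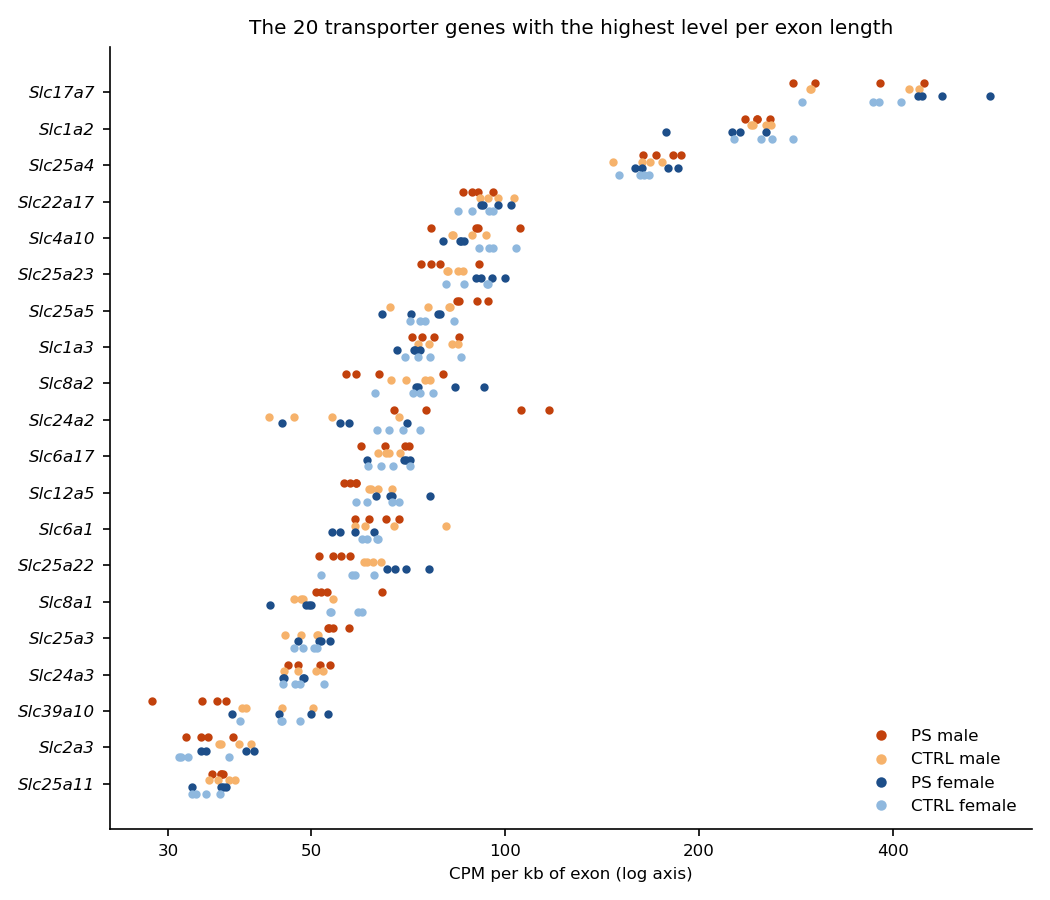
CPM per kb of exon on a log axis for the 20 members with the highest level, 1 point per library (4 PS males, 4 CTRL males, 4 PS females and 4 CTRL females). Slc17a7 (mean 391), Slc1a2 (243) and Slc25a4 (168) stand above the rest, and 2 PS male points of Slc24a2 lie to the right of all its others.

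The first question was which SLC genes differ between PS males and CTRL males. By limma, 3 of the 212 members passed both an adjusted p under 0.05 and a fold change over 1.5, and all 3 were lower in PS males: Slc25a34, Slc9a5 and Slc7a14. This is 1.42% of the members, beside 1.01% of the 14309 genes tested. With an adjusted p under 0.05 at any fold change, 6 members were lower (2.83%, beside 2.56% of all genes) and 0 were higher (beside 0.881%), while 57 members had an unadjusted p under 0.05 (26.9%, beside 25.7%). The further 3 were the exchanger genes Slc9a7 and Slc24a4 and the magnesium transporter gene Slc41a2. All shares of members were thus close to those of all genes.

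Slc25a34 encodes a mitochondrial carrier and lies at chr4:141618824-141623821 on the minus strand (GRCm38, GENCODE M21; ENSMUSG00000040740.7, protein coding). Its level was 4.13, 5.76, 5.60 and 4.22 CPM in PS males, against 7.82, 8.66, 8.86 and 9.48 CPM in CTRL males. Every PS male lay below every CTRL male, and the difference was -0.83 on the log2 scale (SE 0.16, limma adjusted p = 0.032). Slc9a5, the gene of a sodium-proton exchanger found mainly in neurons, lies at chr8:105348843-105369881 on the plus strand (ENSMUSG00000014786.8). It had 12.1, 16.6, 17.6 and 14.1 CPM in PS males, against 19.1, 24.5, 21.9 and 24.7 CPM in CTRL males. The groups did not overlap, although PS male LM27 lay close to CTRL male LM17, and the difference was -0.63 on the log2 scale (SE 0.15, limma adjusted p = 0.0437). Slc7a14, a member of the cationic amino acid transporter family, lies at chr3:31202858-31310378 on the minus strand (ENSMUSG00000069072.9). It had 247, 291, 287 and 276 CPM in PS males, against 367, 400, 428 and 398 CPM in CTRL males. This was the widest separation relative to its error among the members, at -0.59 on the log2 scale (SE 0.08, limma adjusted p = 0.0106), which is just past the limit of 1.5-fold. None of the 3 genes shares exon sequence with another gene of the annotation.

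The windows from 250 bases before to 50 bases after the RefSeq start of these 3 genes (GRCm38.p6) are shown because they are the members that passed both limits in PS males. They were searched on both strands for AGAACA (a half-site of the glucocorticoid receptor), TGACG (a half-site of the cyclic AMP response element) and GGGCGG (the GC box), and matches are in capitals. The windows are chr4:141623785-141624084 on the minus strand, chr8:105348008-105348307 on the plus strand and chr3:31310270-31310569 on the minus strand, each written 5′ to 3′ along its gene.
Slc25a34: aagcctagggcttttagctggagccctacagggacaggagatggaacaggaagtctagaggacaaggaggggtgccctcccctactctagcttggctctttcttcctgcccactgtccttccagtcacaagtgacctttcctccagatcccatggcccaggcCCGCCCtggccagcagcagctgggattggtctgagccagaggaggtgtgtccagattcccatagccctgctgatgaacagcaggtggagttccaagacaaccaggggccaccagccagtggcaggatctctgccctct
Slc9a5: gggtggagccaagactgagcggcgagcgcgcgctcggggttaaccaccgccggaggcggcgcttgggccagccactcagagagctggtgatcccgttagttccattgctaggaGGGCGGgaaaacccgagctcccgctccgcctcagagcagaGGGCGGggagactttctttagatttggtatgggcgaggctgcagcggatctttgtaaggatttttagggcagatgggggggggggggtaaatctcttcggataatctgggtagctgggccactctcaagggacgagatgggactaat
Slc7a14: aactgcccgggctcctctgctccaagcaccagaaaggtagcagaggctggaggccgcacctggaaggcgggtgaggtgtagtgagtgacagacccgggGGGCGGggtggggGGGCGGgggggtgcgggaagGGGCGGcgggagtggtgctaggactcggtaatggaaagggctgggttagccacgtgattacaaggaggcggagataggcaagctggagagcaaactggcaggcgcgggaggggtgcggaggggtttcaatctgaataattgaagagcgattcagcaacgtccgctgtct
All 3 windows held the GC box, with 1 match in Slc25a34, 2 in Slc9a5 and 3 in Slc7a14, and none held either half-site. The GC box was in 35.7% of all 32851 promoter windows, in 61.8% of the 13243 windows of genes of at least 1 CPM and in 69.2% of the 214 windows that matched 165 of the members by symbol. The glucocorticoid receptor half-site was in 9.35% of the members' windows (12.3% of those of genes of at least 1 CPM and 19% of all), and the cyclic AMP half-site was in 25.2% (30.3% of those of genes of at least 1 CPM and 20.8% of all). The matches describe these letters only. The Slc9a5 window lies wholly before the GENCODE M21 start of that gene given above, whereas the Slc25a34 and Slc7a14 windows span theirs.

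The members that passed the test without the fold limit were lower by less, and each of them missed it without CTRL male LM18, LM19 or LM20 or PS male LM25. Slc9a7, the gene of a sodium-proton exchanger of the Golgi, had 26.3, 29.1, 29 and 26.9 CPM in PS males, against 33.4, 35.6, 35.7 and 33.9 CPM in CTRL males (log2 fold change -0.37, SE 0.08, limma adjusted p = 0.0377). Slc24a4, the gene of a sodium-calcium-potassium exchanger, had 30.5, 33.2, 33.3 and 29.2 CPM in PS males, against 41.5, 43.3, 40.2 and 38.3 CPM in CTRL males (log2 fold change -0.43, SE 0.10, limma adjusted p = 0.0446). Slc41a2, a magnesium transporter gene, had 27.8, 30.5, 28.1 and 27.2 CPM in PS males, against 30.7, 33.1, 32.5 and 32 CPM in CTRL males (log2 fold change -0.23, SE 0.05, limma adjusted p = 0.0441). In none of the 3 did the groups overlap, but PS male LM26 and CTRL male LM17 nearly met in Slc41a2. Of the 25 alternatives run, Slc9a7 lost its call under 6, Slc24a4 under 8 and Slc41a2 under 8. Both members of the sodium-proton exchanger list that passed were lower in PS males, and the other 6 of its 8 members did not pass.

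**Figure D2:**
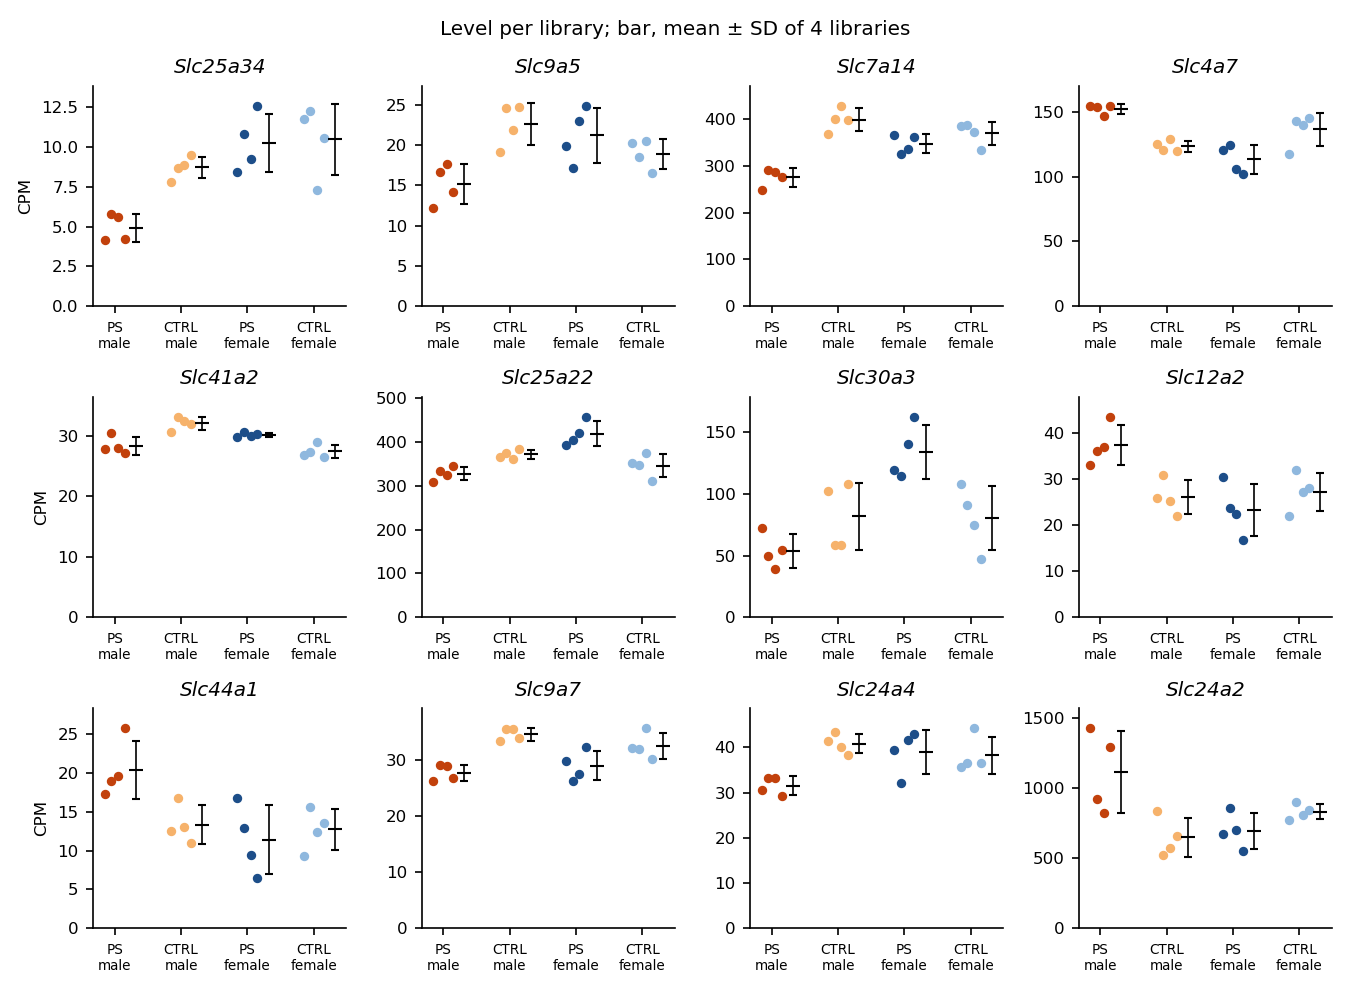
CPM of 12 members in each library, with the mean and SD of the 4 libraries of each group; all axes start at 0. Slc25a34, Slc9a5, Slc7a14, Slc9a7, Slc24a4 and Slc41a2 are lower in all PS males than in all CTRL males, and Slc30a3 and Slc25a22 are lower in all PS males than in all PS females.

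These calls, like those over all genes, rest on few libraries. The count of members past both limits was 0 without CTRL male LM19, CTRL male LM20 or PS male LM25, 1 without CTRL male LM18, and 0 without PS males LM25 and LM28 together. Over all genes tested, 23 passed both limits higher and 122 lower in the main fit. These counts were 91 and 230 without LM17, 2 and 25 without LM18, 3 and 34 without LM19, and 5 and 21 without LM20. They were 2 and 24 without LM25, and 0 and 0 without LM25 and LM28 together. Slc7a14 kept an adjusted p under 0.05 without each library in turn and missed it without LM25 and LM28 together (log2 fold change between -0.63 and -0.53 over all alternatives, largest adjusted p = 0.0571 by limma). The members at an adjusted p under 0.05 alone, 0 higher and 6 lower, were 0 higher and 1 lower (Slc7a14) without CTRL male LM18, LM19 or LM20 or PS male LM25, 1 higher and 9 lower without CTRL male LM17, 5 higher and 7 lower without PS male LM27, 2 higher and 10 lower without CTRL female LM24, and 11 higher and 9 lower without PS female LM32. They were 0 higher and 0 lower without LM25 and LM28 together, 0 higher and 2 lower with no mean trend in the variance, and 3 higher and 5 lower with CPM as deposited. Over all genes, the counts at an adjusted p under 0.05 were 126 higher and 366 lower in the main fit. They were 12 and 39 without LM20, 347 and 671 without LM17, and 555 and 874 without LM32. With CPM as deposited the all-gene counts were 280 and 253, and without LM25 and LM28 together 0 and 0. With CPM as deposited, in which the median of all genes in this comparison is 0.064 rather than 0.0073, the members past both limits were 1 higher (Slc24a2) and 1 lower (Slc25a34) in place of 0 higher and 3 lower. Fold changes below are on the scaled values, in which that shift has been taken out.

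Marker genes of several cell types lay mostly on 1 side of 0 in the same comparison, and their part in these results was not tested. Over all 14309 genes tested, 7413 were above 0. In the oligodendrocyte, hippocampal, astrocyte, inhibitory neuron, central amygdala and striatal lists 0 markers passed at an adjusted p under 0.05. Excitatory neuron markers ran both ways, with 3 above 0 and 3 below. In PS males against CTRL males, 10 of 10 oligodendrocyte markers had a log2 fold change above 0 (summed level 501 to 1047 CPM in PS males and 266 to 529 CPM in CTRL males), as did 9 of 11 hippocampal markers tested (1210 to 2825 CPM in PS males and 1003 to 1480 CPM in CTRL males) and 7 of 8 astrocyte markers (1094 to 1203 CPM in PS males and 933 to 1054 CPM in CTRL males). All 6 inhibitory neuron markers (484 to 712 CPM in PS males, 599 to 874 CPM in CTRL males) and 7 of 8 central amygdala and intercalated markers tested (32.3 to 81.6 CPM in PS males, 65.3 to 105 CPM in CTRL males) were below 0. So were 5 of 6 basolateral amygdala markers (657 to 982 CPM in PS males, 716 to 1003 CPM in CTRL males), with Lmo3 passing, and all 3 striatal markers tested of 6 (52 to 98.9 CPM in PS males, 70.7 to 150 CPM in CTRL males). All 9 microglia markers were below 0 as well (187 to 230 CPM in PS males, 224 to 254 CPM in CTRL males), and of these Itgam and Cx3cr1 passed at an adjusted p under 0.05. None of the markers in these lists was at 0 in every library.

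Of the 4 members on the vesicle loading list, 0 passed between PS males and CTRL males. Slc32a1, which loads GABA and glycine, had 30.6, 50.2, 49.6 and 42.7 CPM in PS males, against 43.8, 63.7, 73.0 and 51.5 CPM in CTRL males, with overlapping groups (log2 fold change -0.48, SE 0.18, limma adjusted p = 0.121). Slc17a7 had 2061, 1632, 1510 and 2413 CPM in PS males, against 2371, 1607, 1612 and 2286 CPM in CTRL males (log2 fold change -0.11), and the second vesicular glutamate transporter gene, Slc17a6, had 5.71 to 7.40 CPM in PS males and 4.41 to 7.60 CPM in CTRL males (log2 fold change 0.14). Slc17a5, which exports sialic acid from lysosomes, was at -0.03. In family 1, which clears glutamate, the 6 members had log2 fold changes between -0.22 (Slc1a6) and 0.01 (Slc1a1, of neurons), with a median of -0.09 beside 0.01 over all genes tested, and 0 passed. Slc1a2 had 3100 to 3392 CPM in PS males and 3169 to 3397 CPM in CTRL males (log2 fold change -0.07, SE 0.11), and Slc1a3 (-0.10), Slc1a4 (-0.07) and Slc1a5 (-0.10), the last 2 being neutral amino acid exchangers, lay as near.

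Of the 10 members on the list for uptake of GABA, monoamines, choline, taurine and creatine, 0 passed, but 2 had groups that did not overlap. The list also holds family 6 members of other substrates, such as Slc6a7. Slc6a11, the GABA transporter gene of astrocytes, had 82.8, 74.1, 79.6 and 86.2 CPM in PS males, against 59.7, 60.1, 68.5 and 54.0 CPM in CTRL males (log2 fold change 0.35, SE 0.11, limma adjusted p = 0.0811). Slc6a8, the creatine transporter gene, had 68.0, 63.2, 62.1 and 81.1 CPM in PS males, against 55.8, 54.2, 51.8 and 48.9 CPM in CTRL males (log2 fold change 0.31, SE 0.10, limma adjusted p = 0.0771). Slc6a13, a GABA and taurine transporter gene of the meninges, was at -0.44 with an SE of 0.29. Over all members, 51 were higher in every PS male than in every CTRL male in deposited CPM (24.1%, beside 17.3% of all genes) and 15 were lower (7.08%, beside 6.62%). In scaled CPM these counts were 29 higher (13.7%, beside 10.2%) and 28 lower (13.2%, beside 12.1%).

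The calcium and bicarbonate transporters ran in both directions. Slc24a2 had the largest positive log2 fold change of all members in PS males, with 1429, 922, 820 and 1295 CPM in PS males, against 836, 525, 574 and 658 CPM in CTRL males (0.71, SE 0.19, limma adjusted p = 0.0584). The groups overlapped through PS male LM27 and CTRL male LM17, and the 2 highest values were in LM25 and LM28. The sodium-calcium exchanger genes Slc8a1 (0.09), Slc8a2 (-0.23) and Slc8a3 (-0.24) did not pass, although Slc8a3 was at 9.55 to 9.88 CPM in PS males and 10.6 to 11.9 CPM in CTRL males. Among the 12 bicarbonate and sulfate transporters of families 4 and 26, 7 were above 0 and 0 passed. Slc4a7, an electroneutral sodium-bicarbonate transporter gene, had 154, 154, 147 and 154 CPM in PS males, against 125, 120, 129 and 120 CPM in CTRL males (log2 fold change 0.24, SE 0.07, limma adjusted p = 0.0684). Slc26a11, an anion transporter gene, was at 4.20 to 4.98 CPM in PS males and 3.27 to 3.58 CPM in CTRL males (0.31), and the sulfate transporter gene Slc26a2 was at 3.64 to 4.40 CPM in PS males and 4.60 to 5.74 CPM in CTRL males (-0.37), and neither passed. Slc4a10 was at -0.01.

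The glucose and hexose list was the one with the largest share below 0: 8 of 9 members, with a median log2 fold change of -0.19, and 0 passed. The exception was Slc2a1, the glucose transporter gene of the blood-brain barrier, with 59.5, 49.7, 43.4 and 58.9 CPM in PS males, against 41.5, 36.6, 38.2 and 29.7 CPM in CTRL males (0.47, SE 0.15, limma adjusted p = 0.0822), and its groups did not overlap. Below 0 lay Slc2a5, a fructose transporter gene that microglia express (-0.40), the iodide transporter gene Slc5a5 (-0.20) and Slc2a13, a proton-coupled inositol transporter gene (-0.22). The list follows families 2 and 5, so Slc5a5 and others such as Slc5a6 are in it by family only. Its counts are therefore not those of sugar transporters alone. Of the 8 endothelial markers 7 were above 0 (103 to 121 CPM in PS males, 90.1 to 104 CPM in CTRL males) and Ly6c1 passed, and the part of this in the value of Slc2a1 was not tested. Among the 9 monocarboxylate transporters 0 passed, with Slc16a1, of endothelium and glia, at 37.1 to 44.6 CPM in PS males and 23.6 to 31.9 CPM in CTRL males (0.38, SE 0.19), Slc16a7, of neurons, at -0.23 and Slc16a14 at -0.33.

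Family 25 had 27 of 38 members above 0 in PS males, with a median of 0.04 beside 0.01 over all genes, and Slc25a34 was its single member that passed. Slc25a33, a pyrimidine nucleotide carrier gene, had 28.6, 24.4, 22.6 and 25.2 CPM in PS males, against 19.9, 19.1, 21.5 and 15.1 CPM in CTRL males (0.35, SE 0.11, limma adjusted p = 0.0771). The mitochondrial glutamate carrier gene Slc25a22 (-0.24) and the uncoupling-type carrier gene Slc25a14 (-0.21) lay on the other side and did not pass, nor did Slc25a4 (0.05), Slc25a5 (0.15) or Slc25a23 (-0.12). Of the 24 amino acid transporters, Slc7a14 was the single one that passed, and 14 were above 0, with Slc38a4 at -0.44, Slc38a10 at -0.18 and Slc38a5 at 0.08. Of the 20 zinc transporters 0 passed: Slc39a10, a zinc importer gene, was at 172 to 225 CPM in PS males and 238 to 307 CPM in CTRL males (-0.43, SE 0.13), whereas the importer gene Slc39a12, of astrocytes, was at 32.5 to 35.6 CPM in PS males and 26.6 to 29.5 CPM in CTRL males (0.23, SE 0.08), and the exporter gene Slc30a4 was at 0.21.

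The smaller lists held few differences. Slc41a2 was the single one of 7 iron, copper and magnesium transporters that passed, beside the iron transporter gene Slc11a2 (0.09) and the copper transporter gene Slc31a1 (0.22). Of the 7 organic ion transporters 0 passed, with the carnitine transporter gene Slc22a5 at 0.11, Slc22a23 at 0.21 and Slc22a17 at -0.16. The 3 nucleoside transporter genes Slc29a1 (0.08), Slc29a2 (0.08) and Slc29a3 (0.12) and the nucleotide-sugar transporter genes Slc35a1 (-0.05), Slc35a4 (0.18) and Slc35a5 (0.17) did not pass, nor did the fatty acid transporter genes Slc27a2 (-0.16) and Slc27a3 (0.45). Slc10a3 was at -0.07 and Slc23a3 at 0.01. Over all 212 members the median log2 fold change was 0.02, beside 0.01 over all genes tested, and 115 members were above 0.

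**Figure D3:**
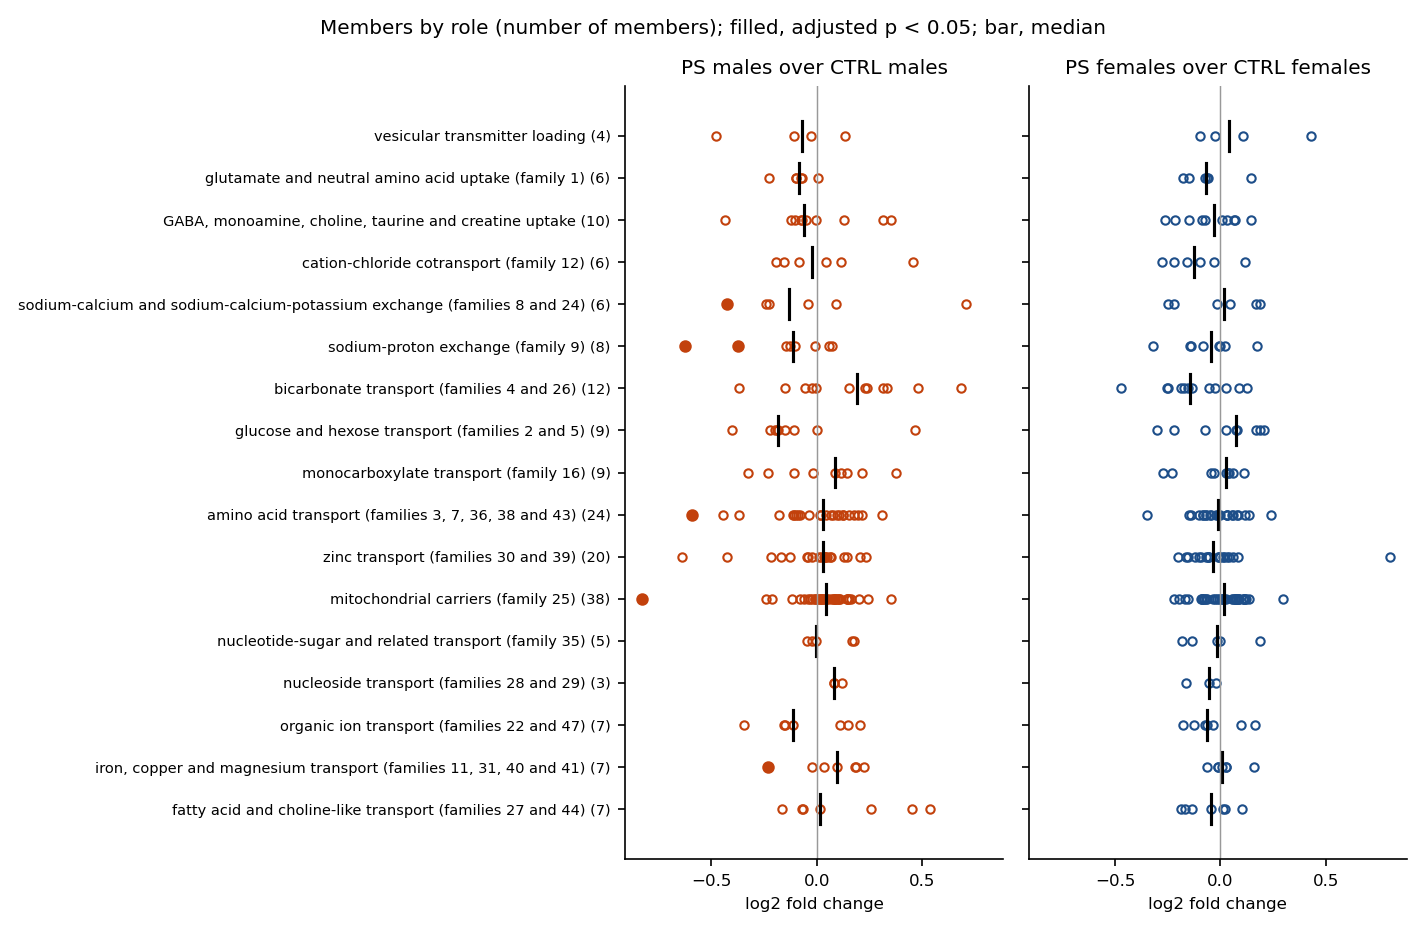
Log2 fold changes of the members by role list, PS males over CTRL males on the left and PS females over CTRL females on the right, 1 circle per member, filled where the adjusted p is under 0.05, with a bar at the median of the list. The 6 filled circles are all on the left panel and all below 0, and list medians stay between -0.19 and 0.19 in both panels.

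In PS females against CTRL females, 0 of 212 members passed by limma, beside 0 of 14236 genes tested (0%). The study's own edgeR analysis, at the same limits, reported a small number of changed genes in this comparison and many more in males. The test used here thus called fewer genes in both sexes than the study did. An unadjusted p under 0.05 was reached by 19 members (8.96%, beside 12.7% of all genes), 8 of them higher and 11 lower. In deposited CPM 6 members were higher without overlap (2.83%, beside 2.71%) and 9 lower (4.25%, beside 4.73%), and in scaled CPM 5 were higher (beside 3.48%) and 5 lower (beside 4.07%). Slc30a3, which loads zinc into the vesicles of glutamatergic neurons, had the largest log2 fold change (0.80, SE 0.29, limma adjusted p = 0.304), with 119, 114, 140 and 162 CPM in PS females, against 108, 90.9, 75 and 47.4 CPM in CTRL females. Slc17a7 was also higher in every PS female, with 2363, 2575, 3056 and 2392 CPM in PS females, against 2010, 2225, 2054 and 1557 CPM in CTRL females (0.43, SE 0.19, limma adjusted p = 0.382). Neither passed.

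Other members without overlap between PS and CTRL females had smaller differences than Slc30a3, and 0 of them passed. Higher were Slc25a22 (393 to 456 CPM in PS females, 311 to 375 CPM in CTRL females, log2 fold change 0.30), the neutral amino acid transporter gene Slc7a8 (0.24), Slc41a2 (29.9 to 30.6 CPM in PS females, 26.5 to 29.1 CPM in CTRL females, 0.16) and the coenzyme A carrier gene Slc25a42 (0.14). Lower were Slc26a10 (-0.47), Slc2a13 (213 to 257 CPM in PS females, 261 to 303 CPM in CTRL females, -0.30), the peptide transporter gene Slc15a2 (-0.27), Slc8a1 (-0.22), Slc30a4 (-0.20), Slc22a5 (-0.18), Slc4a10 (-0.17), the acetyl-CoA transporter gene Slc33a1 (-0.12) and the vitamin C transporter gene Slc23a2 (-0.12). In family 1 the values ran from -0.18 (Slc1a2, 2336 to 3342 CPM in PS females and 2974 to 3679 CPM in CTRL females) to 0.15 (Slc1a5). Slc25a34 was at 0.00 (8.45, 10.8, 9.21 and 12.6 CPM in PS females, against 11.7, 12.3, 7.30 and 10.6 CPM in CTRL females), Slc7a14 at -0.07 and Slc9a5 at 0.17. The hippocampal markers ran opposite to the males, with 2 of 11 above 0 (768 to 1720 CPM in PS females, 1500 to 2003 CPM in CTRL females). Of the excitatory neuron markers 5 of 6 were above 0 (6986 to 9059 CPM in PS females, 5619 to 7275 CPM in CTRL females). Below 0 were 7 of 8 astrocyte and 6 of 8 endothelial markers. Above 0 were 7 of 10 oligodendrocyte, 6 of 9 microglia, 6 of 8 central amygdala and 4 of 6 basolateral amygdala markers. In these lists 0 markers passed, and their part in the members' values was not tested.

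Whether the PS effect differed between the sexes was tested as the log2 fold change in males minus that in females. Of the 212 members 5 passed at an adjusted p under 0.05, 1 higher in males (0.472%, beside 1.31% of 14392 genes) and 4 lower (1.89%, beside 2.79%), and 1 of them, Slc9a5, was also past 1.5-fold (0.472%, beside 1.61%). Slc9a5 had a difference of -0.80 (SE 0.21, limma adjusted p = 0.048), with 12.1 to 17.6 CPM in PS males, 19.1 to 24.7 CPM in CTRL males, 17.1 to 24.8 CPM in PS females and 16.5 to 20.4 CPM in CTRL females. Slc7a14 had a difference of -0.52 (SE 0.11, limma adjusted p = 0.043), and its level in PS females (366, 325, 335 and 362 CPM) overlapped with that in CTRL females (385, 387, 372 and 334 CPM). In Slc7a14 every PS male lay below every library of the other 3 groups. CTRL females overlapped with both PS females and CTRL males, whereas every PS female lay below every CTRL male, though narrowly. In Slc9a5 the highest PS male overlapped with both female groups.

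For the other 3 members the 2 effects had opposite signs. Slc25a22 had 308, 334, 324 and 344 CPM in PS males, against 366, 374, 362 and 385 CPM in CTRL males, and 393, 404, 421 and 456 CPM in PS females, against 351, 346, 375 and 311 CPM in CTRL females. Its groups did not overlap in either sex, in opposite directions, and the difference of the effects was -0.54 (SE 0.12, limma adjusted p = 0.0417). Slc41a2 followed the same order, at -0.23 in males and 0.16 in females, with a difference of -0.39 (SE 0.08, limma adjusted p = 0.0376). Slc4a7 went the other way, at 0.24 in males and -0.25 in females, with 120, 125, 106 and 102 CPM in PS females, against 118, 143, 140 and 145 CPM in CTRL females, and a difference of 0.49 (SE 0.10, limma adjusted p = 0.0376). The effects in females alone did not pass for any of the 3, and that in males passed for Slc41a2 alone.

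Further members lay near the limit and did not pass it, among them Slc30a3 (difference -1.44, limma adjusted p = 0.0587), Slc25a34 (-0.83, 0.0562), Slc24a2 (0.96, 0.0591), Slc15a2 (0.52, 0.0583), Slc35a5 (0.30, 0.0506), Slc30a4 (0.41, 0.0598) and Slc39a12 (0.36, 0.0697). The number of members past both limits in this comparison was 0 without CTRL male LM18, LM19 or LM20, PS male LM25, CTRL female LM24 or PS female LM32. It was 6 without CTRL female LM21, PS female LM29 or PS female LM30, 4 when CTRL male LM17 was left out, 3 without PS male LM26, LM27 or LM28 or CTRL female LM23, and 1 higher in place of 1 lower without PS female LM31. With CPM as deposited it was 2 higher (Slc15a2 and Slc24a2) and 0 lower in place of 0 higher and 1 lower. Without LM25 and LM28 together it was 1, with 4 higher and 5 lower at an adjusted p under 0.05 alone. Over all genes, the counts past both limits in this comparison were 52 higher and 179 lower in the main fit. They were 17 and 64 without LM20, 10 and 51 without LM24, 159 and 297 without LM21, and 165 and 399 without LM30. With CPM as deposited the all-gene counts were 99 and 131, and with no mean trend 3 and 6. With no mean trend in the variance all 5 members missed an adjusted p under 0.05, and with no filter on low values Slc9a5, Slc7a14 and Slc25a22 missed it. Slc9a5 missed it under 12 of 24 alternatives. The other 4 held it without each library in turn, except that Slc7a14 and Slc25a22 missed it without CTRL male LM20 (limma adjusted p = 0.0511 and 0.0518).

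Females and males were then compared within CTRL and within PS. In CTRL, 0 of 212 members passed by limma, beside 0.0562% of 14244 genes, and 9 members had an unadjusted p under 0.05 (4.25%, beside 5.54%), 5 higher and 4 lower in CTRL females. The smallest p belonged to Slc41a2, which was at 26.5 to 29.1 CPM in CTRL females and 30.7 to 33.1 CPM in CTRL males (log2 fold change -0.23, limma adjusted p = 0.553), and Slc22a5 was at 6.70 to 7.75 CPM in CTRL females and 5.81 to 6.37 CPM in CTRL males (0.18, limma adjusted p = 0.868). In PS, 4 members passed both limits (1.89%, beside 2.09% of 14316 genes). With an adjusted p under 0.05 alone, 14 were higher in PS females (6.6%, beside 7.58%) and 15 were lower (7.08%, beside 5.53%), and 70 had an unadjusted p under 0.05 (33%, beside 32.3%). These comparisons share the PS and CTRL libraries with those above, so a member can pass here through the same libraries.

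The 2 members higher in PS females past both limits were Slc30a3 and Slc25a34. Slc30a3 had 119, 114, 140 and 162 CPM in PS females, against 71.9, 49.3, 38.7 and 54.5 CPM in PS males (log2 fold change 1.40, SE 0.29, limma adjusted p = 0.0133). It was at 47.4 to 108 CPM in CTRL females and 58.5 to 108 CPM in CTRL males, so that the CTRL groups overlapped almost wholly (-0.04). Slc25a34 had 8.45, 10.8, 9.21 and 12.6 CPM in PS females, against 4.13, 5.76, 5.60 and 4.22 CPM in PS males (1.05, SE 0.16, limma adjusted p = 0.00935). Among the 12 others higher in PS females were Slc9a5 (0.54), Slc39a10 (0.53), Slc37a1 (0.49), Slc25a22 (0.42), Slc7a14 (0.40), Slc24a4 (0.36), Slc8a3 (0.31), Slc25a23 (0.31), Slc12a5 (0.30), Slc7a8 (0.27), Slc25a14 (0.27) and Slc4a3 (0.21). Slc17a7 (0.54, limma adjusted p = 0.0793) did not pass. Excitatory neuron markers were above 0 in 5 of 6 cases (6986 to 9059 CPM in PS females, 5303 to 7927 CPM in PS males, Camk2a passing), as were 5 of 6 basolateral amygdala markers (798 to 1080 CPM in PS females, 657 to 982 CPM in PS males, Mef2c and Lmo3 passing). So were all 8 central amygdala and intercalated markers tested, with 0 passing, and all 9 microglia markers, with Itgam and Cx3cr1 passing. Of 8 thalamic and habenular markers tested 6 were below 0, with Tcf7l2 passing below 0 and Nwd2 above 0. Of the hippocampal markers 9 of 11 were below 0 (768 to 1720 CPM in PS females, 1210 to 2825 CPM in PS males, Calb1, Zbtb20 and Pou3f1 passing), and the part of these markers in the values of Slc30a3 and the other members was not tested.

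The 2 members lower in PS females past both limits were Slc44a1, a choline transporter-like gene, and Slc12a2, which imports sodium, potassium and chloride. Slc44a1 had 16.8, 12.9, 9.46 and 6.53 CPM in PS females, against 17.2, 18.9, 19.5 and 25.8 CPM in PS males (log2 fold change -0.80, SE 0.24, limma adjusted p = 0.0421). Slc12a2 had 30.4, 23.7, 22.4 and 16.8 CPM in PS females, against 33.0, 36.2, 37.1 and 43.5 CPM in PS males (-0.63, SE 0.16, limma adjusted p = 0.0256). In both genes LM32 was the lowest PS female and LM28 the highest PS male, and the same 2 libraries had the lowest and the highest mean log2 level of the 10 oligodendrocyte markers (2.41 and 5.31). All 10 of those markers were below 0 in this comparison (116 to 632 CPM in PS females, 501 to 1047 CPM in PS males, Opalin passing), none was at 0 in every library, and their part in these 2 values was not tested. Without LM32 neither gene passed, and Slc44a1 also did not pass without PS male LM26, LM27 or LM28 or PS female LM31 (largest limma adjusted p over the alternatives 0.0921 for Slc44a1 and 0.0507 for Slc12a2). The members past both limits were then 2 without LM32, 7 without PS male LM27 and 9 without PS female LM30, in place of 4, and 3 higher and 1 lower without LM25 and LM28 together. Over all genes, the counts past both limits were 208 higher and 91 lower in the main fit. They were 145 and 27 without LM32, 236 and 133 without LM27, and 326 and 191 without LM30. Without LM25 and LM28 together the all-gene counts were 168 and 47.

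The other 13 members lower in PS females ran from -0.21 to -0.51. They were Slc2a1 (-0.51), Slc15a2 (-0.50), Slc7a11, the cystine-glutamate exchanger gene (-0.42), Slc25a33 (-0.41), Slc10a7 (-0.39), Slc22a23 (-0.37), Slc6a11 (-0.36), Slc4a7 (-0.36), Slc35a5 (-0.35), Slc30a4 (-0.32), the pyrimidine nucleotide carrier gene Slc25a36 (-0.32), Slc39a12 (-0.30) and Slc39a1 (-0.21). The smallest adjusted p among them was that of Slc35a5 (41.1, 37.8, 37.0 and 34.2 CPM in PS females, against 50.3, 51.8, 51.3 and 47 CPM in PS males, 0.00935 by limma). In Slc15a2 the PS females lay at 16.4 to 20.6 CPM and the PS males at 23 to 32.4 CPM. Of the 8 astrocyte markers 5 were below 0 in this comparison (881 to 1161 CPM in PS females, 1094 to 1203 CPM in PS males), with Gja1 and Gjb6 passing, and their part in the values of Slc6a11, Slc15a2 and Slc39a12 was not tested.

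The 14 higher and 15 lower members at an adjusted p under 0.05 also rested on few libraries. They were 5 higher and 6 lower without PS female LM32, 19 higher and 26 lower without PS female LM30, 20 higher and 24 lower without CTRL female LM21, and 13 higher and 8 lower without LM25 and LM28 together. With CPM as deposited, in which the median of all genes in this comparison is -0.069 rather than -0.0018, they were 10 higher and 31 lower. Over all genes, 1085 were higher and 792 lower at an adjusted p under 0.05 in the main fit. These counts were 693 and 414 without LM32, 1533 and 1126 without LM30, and 1398 and 1168 without LM21. Without LM25 and LM28 together they were 908 and 707, and with CPM as deposited 739 and 1661. Without LM32, and without every other library in turn, the call was held by Slc25a34, Slc30a3, Slc25a22, Slc7a14 and Slc25a14 on the higher side and by Slc4a7, Slc35a5, Slc25a36, Slc15a2, Slc10a7 and Slc39a12 on the lower side. Each of the others lost it without at least LM32, and Slc6a11 and Slc22a23 lost it under 9 of 25 alternatives, Slc2a1 and Slc8a3 under 7, Slc7a8 under 6 and Slc25a23 under 5.

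**Figure D4:**
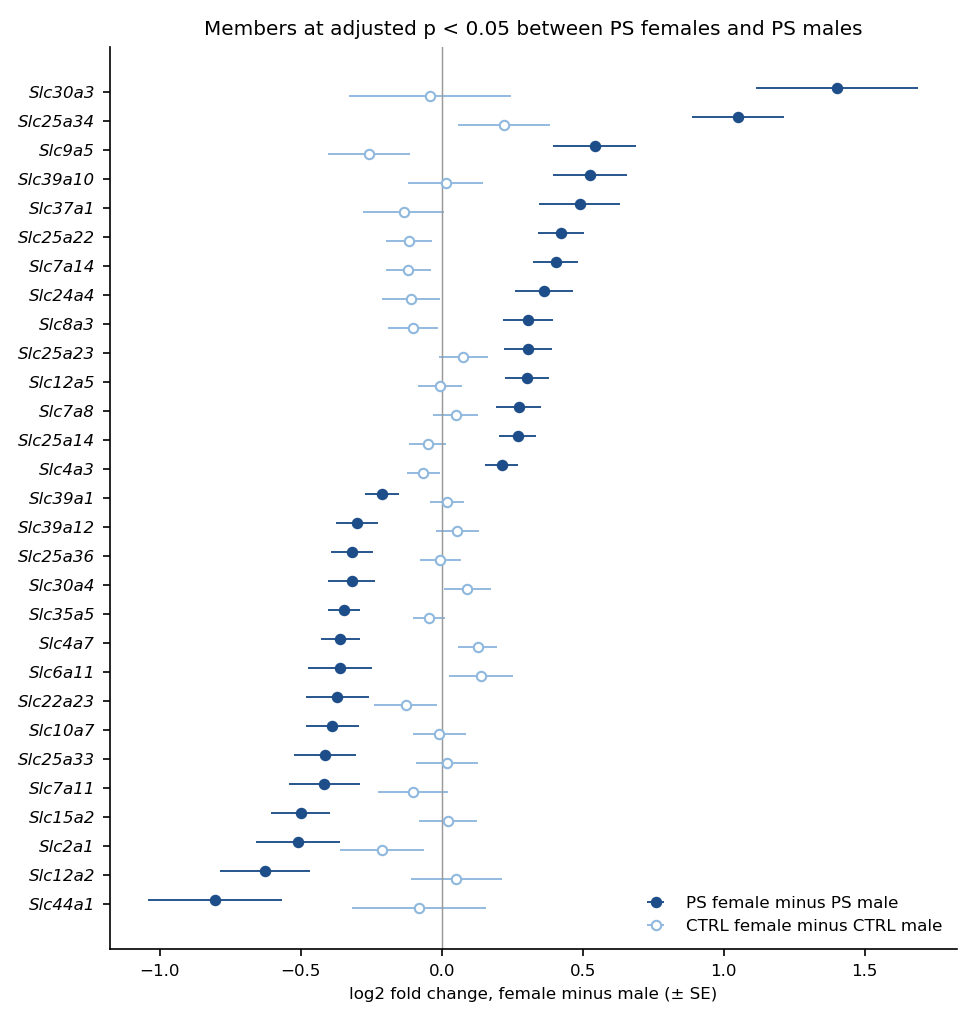
Log2 fold changes of females over males (± SE) for the 29 members with an adjusted p under 0.05 between PS females and PS males, with filled circles for PS and open circles for CTRL. The filled circles run from -0.80 (Slc44a1) to 1.40 (Slc30a3), and the open circles lie between -0.26 (Slc9a5) and 0.22 (Slc25a34).

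Family 12 holds the transporters that set the chloride gradient of neurons: Slc12a5 extrudes chloride, and Slc12a2 takes it up. In PS males against CTRL males neither passed by itself. Slc12a2 was at 33.0 to 43.5 CPM in PS males and 22.1 to 31 CPM in CTRL males (log2 fold change 0.46, SE 0.16, limma adjusted p = 0.105), and Slc12a5 was at 419 to 438 CPM in PS males and 458 to 498 CPM in CTRL males (-0.19, SE 0.08, limma adjusted p = 0.143), both without overlap. The ratio of their CPM within a library, chosen after these values had been seen and free of scaling, was 13.3, 11.8, 11.8 and 9.64 in PS males, against 18.2, 14.9, 18.1 and 22.5 in CTRL males. The mean ratio was 11.6 ± 1.5 in PS males and 18.4 ± 3.14 in CTRL males (SD, n = 4 each), a log2 difference of -0.66. Since both genes had groups without overlap in opposite directions, the separation of the ratio follows from them, and no test is given. In females the ratio was 16.3, 19.8, 22 and 34.0 in PS females, against 23.1, 14.2, 18.4 and 15.6 in CTRL females (log2 difference 0.34), with overlap between the groups. Slc12a2 is also expressed by glia. Between PS males and CTRL males, 10 of 10 oligodendrocyte and 7 of 8 astrocyte markers were above 0, with 0 passing at an adjusted p under 0.05. The part of these markers in Slc12a2 or in the ratio was not tested.

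The ratio of Slc17a7 to Slc32a1, also chosen with the values known, was 59.4 ± 11.3 in PS females and 40.9 ± 5.52 in CTRL females (SD, n = 4 each, log2 difference 0.53), and in males it differed by 0.37. The ratio of Slc17a7 to Slc17a6 differed by -0.26 in males and by 0.31 in females. These are descriptions with no test. The potassium-chloride cotransporter genes Slc12a4 (0.12 in males and -0.16 in females) and Slc12a7 (-0.15 in males and -0.28 in females) and the related Slc12a9 (0.04 in males and -0.09 in females) did not pass in either sex.

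**Figure D5:**
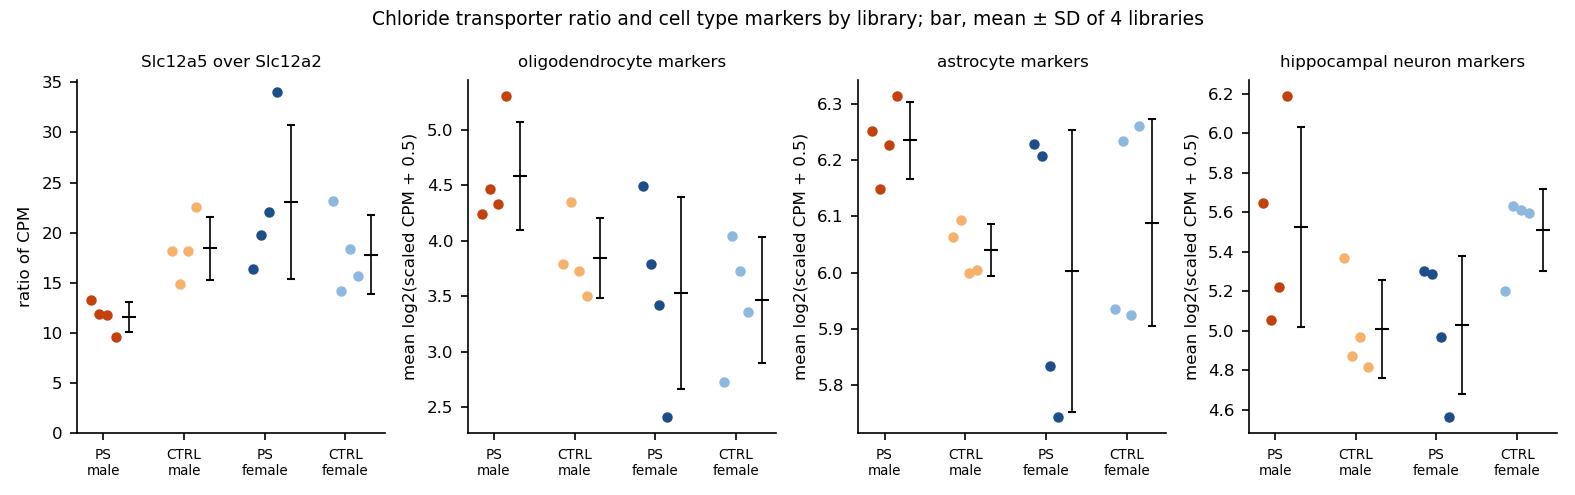
The ratio of Slc12a5 to Slc12a2 CPM in each library (axis from 0) and the mean log2 level of the oligodendrocyte, astrocyte and hippocampal markers (axes not from 0), with mean ± SD of the 4 libraries of each group. The ratio is 9.64 to 13.3 in PS males, below the lowest CTRL male (14.9), and LM28 has the highest oligodendrocyte level (5.31) and LM32 the lowest (2.41).

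The members varied within groups about as much as other genes, with a median SD of log2 values of 0.112 beside 0.111 over 14392 genes. The steadiest were Slc11a2 (0.04) and the mitochondrial carrier gene Slc25a27 (0.04), and the most variable was the sodium-proton exchanger gene Slc9a4 (0.73), followed by Slc6a13 (0.43), Slc30a3 (0.43), the anion exchanger gene Slc26a4 (0.41) and Slc44a1 (0.35).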

How the data were processed

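Amygdala RNA of 16 PN28 offspring was sequenced as directional poly(A) libraries. Per the labels and the methods, the authors used STAR, featureCounts and edgeR with mm10; versions and the strand setting are not given in the sources used here. The deposited whole-number values had already been corrected by the authors for unwanted factors within groups (RUVs) and are treated as a score, not as counts. The deposited CPM are these values divided by their sum per library and brought to a common total. The deposited columns of the authors' own fold changes and p-values were not used.

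CPM were scaled by TMM factors and tested as log2(CPM + 0.5) with limma 3.58.1 (R 4.3.3), with a mean trend, over genes with a mean over 0.5 CPM in at least 1 compared group. Of 12 within-group directions 2 had been removed by the correction and were kept as model terms in the main fits. Fits with libraries or groups left out kept fewer of these terms. Any part of the removed factors that differed between groups cannot be recovered. P-values were adjusted by Benjamini-Hochberg over all genes tested. Fold changes are on the log2(CPM + 0.5) scale, which understates low genes.

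Named with values were all members of the vesicle loading, family 1 and family 12 lists, all members past both limits, up to 6 per direction and comparison with the smallest p and no overlap, the 10 highest per kb, up to 3 per other list by p in males, and 3 on each side of the CPM limit. Some genes that this rule names are not reported here. Other genes named were chosen after their values were seen. The members and lists were chosen with earlier results of these data known. Exon lengths and positions are from GENCODE M21 and promoter windows from RefSeq (GRCm38.p6). Scripts were tested on simulated data. Alternatives were other scalings, pseudocounts of 0.1 and 1, filters, variance settings, fits and left-out libraries.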

Additional observations from a re-analysis of the deposited data

Results flagged for a closer look

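For 12 of 300 groups of 4 libraries of the named members, 1 library lay far from the other 3 by Dixon's test, and chance alone gives about 1 in 20. Among PS males these were Slc8a1 in LM25 (1213 CPM, the highest), Slc1a4 in LM28 (68.1 CPM, the lowest), Slc16a14 in LM28 (9.04 CPM, the highest), Slc27a3 in LM28 (11.5 CPM, the highest), Slc4a7 in LM27 (147 CPM, the lowest) and Slc16a7 in LM27 (15.8 CPM, the lowest). Among CTRL males they were Slc15a2 in LM18 (18.8 CPM, the lowest), Slc16a7 in LM19 (17 CPM, the lowest) and Slc31a1 in LM20 (6.94 CPM, the lowest). Among females they were Slc8a1 in PS female LM32 (811 CPM, the lowest), Slc11a2 in PS female LM30 (48.9 CPM, the highest) and Slc24a4 in CTRL female LM23 (44.3 CPM, the highest).

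For 5 members the PS effect differed between the sexes by limma's test of that difference, given as males minus females on the log2 scale: Slc9a5 (-0.80), Slc25a22 (-0.54), Slc7a14 (-0.52), Slc41a2 (-0.39) and Slc4a7 (0.49).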

How the results depend on the processing

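The number of members past both limits between PS males and CTRL males (3) was 6 with the adjusted p alone and 0 without PS males LM25 and LM28 together, and it ran between 0 and 4 when 1 library was left out. For the difference of the PS effects between sexes (1) it was 2 with CPM as deposited, 0 with no filter on low values, 0 with no mean trend, 6 when the removed factors were not kept in the model and 5 with the adjusted p alone, and it ran between 0 and 6 with 1 library left out. Between PS females and PS males (4) it was 29 with the adjusted p alone and between 2 and 9 with 1 library left out. The members with an adjusted p under 0.05 alone in that comparison (14 higher and 15 lower) were between 5 higher and 6 lower and 19 higher and 26 lower with 1 library left out. The counts over all genes moved with the setting as well, as given above. The causes were not tested. Between PS females and CTRL females and between CTRL females and CTRL males the number of members past both limits was 0 under all alternatives run. Values of single members were followed under the alternatives only where a named member had an unadjusted p under 0.05 in the main fit. Of these values, 2727 kept their direction and side of the threshold, 129 lost it and 214 gained it, and 0 reversed. With that choice and mostly the same libraries in each fit, reversals were unlikely from the start. No paired analysis was possible because the litter of each library is not given, and any brothers and sisters were treated as independent. With 4 libraries a group and values corrected before deposit, counting error and depth cannot be read from the table.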
